A study of Homo sapiens with 6 samples.

Results

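The genes described here are the receptors EGFR, ERBB2, ERBB3 and MET and the ligands AREG, EREG, HBEGF, TGFA and BTC, taken by their symbols from the deposited tables. They are 9 of the 32192 genes in the count table, and all 9 passed the filter on low counts. All samples are of A549, a line established from a lung adenocarcinoma, and stranded paired-end libraries were made from poly(A) RNA. The cells of 3 libraries had received a plasmid for APEX1 (APEX1-OE), and those of the other 3 the control plasmid (Ctrl). The APEX1 plasmid was made from the pIRES-hrGFP-1a vector and adds a FLAG tag to the end of APEX1. Transfection was transient, and neither the share of cells that took up a plasmid nor the time between transfection and RNA extraction is given for these libraries in the sources used here. The comparison asks whether receptor and ligand transcripts differ when APEX1, an enzyme of DNA base excision repair that also acts on the redox state of transcription factors, is overexpressed.

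The ERBB receptors are tyrosine kinases of the cell surface that pair when a ligand binds and then signal through RAS and ERK and through PI3K. EGFR binds all of the ligands above, ERBB2 has no known ligand of its own and serves as a partner, and ERBB3, whose kinase is weak, binds neuregulins. MET is the receptor of HGF. The ligands are made as precursors in the membrane, from which metalloproteases release them. In lung adenocarcinoma EGFR, ERBB2 and MET are known oncogenes.

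Values are listed in the order of replicates 1, 2 and 3 of a group throughout. Depth was 28987040, 41009197 and 35234411 counts for APEX1-OE and 28131955, 34398771 and 35834880 counts for Ctrl. The libraries stood apart in a way that cut across the plasmid groups. The first principal component of log2 CPM (counts scaled to library size with edgeR's TMM factors) held 70.2% of the variance, and its scores were -60.5, 34.3 and 51.3 in APEX1-OE and -33.6, -31.8 and 40.4 in Ctrl. APEX1-OE replicate 1 and Ctrl replicates 1 and 2 are therefore called the lower-side libraries below, and APEX1-OE replicates 2 and 3 and Ctrl replicate 3 the upper-side libraries. The groups are thus spread unevenly over the sides, and a fold change on condition alone takes in part of a side difference. The same libraries fell on each side when the 9 genes were left out of the component, though leaving out 9 of 16971 genes could hardly change it. The labels do not say that the libraries came from separate cultures, so the p-values measure only the spread between these samples, which may be technical. In RNA from bulk cells, fewer cells that express a gene and less RNA per cell cannot be told apart.

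APEX1 (ENSG00000100823.11) was read first as a check of the labels. Its FPKM (fragments per kb of gene, scaled to library size) was 618, 680.3 and 768 in APEX1-OE and 129, 126 and 124 in Ctrl. No Ctrl library came near an APEX1-OE library, on either library side. The log2 fold change was 2.42 (standard error 0.171, adjusted p = 0.00809, edgeR, quasi-likelihood, Benjamini-Hochberg adjustment). Leaving out single libraries kept it between 2.36 and 2.46, while the adjusted p in edgeR became 0.118 and 0.0674 when replicate 2 or 3 of APEX1-OE was absent, and 0.210 and 0.207 when replicate 1 or 2 of Ctrl was absent.

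The markers of the labelled cell line were mostly present. Of 6 epithelial markers, 5 had a mean above 1 FPKM, led by the keratin KRT8 at a mean of 3050 FPKM, while EPCAM stood at 0.342 FPKM. All 5 markers of the A549 line exceeded 1 FPKM, led by ALDH3A1 at a mean of 1310 FPKM, and CDKN2A, which is deleted in the line, had 0 counts in 5 libraries and 2 in Ctrl replicate 2. Markers of alveolar type II cells were near 0, with SFTPC at a mean of 0.045 FPKM and NAPSA highest at 1.38 FPKM. The 3 endothelial markers summed to at most 0.04 FPKM in any library and the 3 fibroblast markers with FPKM to at most 0.84 FPKM. The immune markers PTPRC and CD3E had at most 1 count in any library, and CD14 and CD68 had means of 2.44 and 1.29 FPKM.

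No receptor or ligand was called higher or lower in APEX1-OE. In the quasi-likelihood test of edgeR, fitted on condition alone, 0 of 9 had an adjusted p under 0.05, where 1 of the 16971 genes tested was called, or 0.00589%. At an unadjusted p under 0.05 the count was 0 of 9 as well, against 118 of all genes, or 0.695%. DESeq2 and limma also called 0 of 9, against 1 of all genes each. With the library side added as a term, edgeR called 0 of 9, against 4 of all genes or 0.0236%, and at an unadjusted p under 0.05 it was 0 of 9 against 1973 of all genes or 11.6%. With that term and an offset for GC content and gene length, 0 of 9 were called, against 20 of all genes or 0.118%. The CPM of the groups overlapped in all 9, while 576 of all genes, or 3.39%, had groups that did not overlap. Such counts of 0 lie near these background shares, and nothing particular to the receptors and ligands is read from them.

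The library side separated many of these transcripts, as it did most genes tested. In FPKM, 8 of the 9 genes had no overlap between lower-side and upper-side libraries, ERBB3 being the exception, beside 63.4% of the tested genes with FPKM. In CPM the number was 5 of 9, namely EGFR, ERBB2, MET, EREG and BTC, beside 66.4% of all genes tested. The sides were drawn from the same libraries, so these counts are a description with no test.

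EGFR (ENSG00000146648.15, chromosome 7 from 55019017 to 55211628 on the plus strand of GRCh38) had 5.14, 14.2 and 13.6 FPKM in APEX1-OE and 6.48, 6.76 and 13.6 FPKM in Ctrl. MET (ENSG00000105976.14, chromosome 7 from 116672196 to 116798377, plus strand) had 7.49, 25.4 and 28.0 FPKM in APEX1-OE and 10.2, 10.2 and 24.1 FPKM in Ctrl. Both receptors were low in APEX1-OE replicate 1 and Ctrl replicates 1 and 2 and high in the other libraries, so the groups overlapped widely. The mean CPM of EGFR was 153 ± 60.8 in APEX1-OE and 128 ± 49.0 in Ctrl, and that of MET 160.1 ± 79.1 and 120.2 ± 57.3 (SD, n = 3 libraries each). Geometric mean CPM in upper-side libraries was 1.99 times that in lower-side libraries for EGFR and 2.47 times for MET.

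ERBB2 (ENSG00000141736.13, chromosome 17 from 39687914 to 39730426, plus strand) had 18.3, 16.3 and 14.9 FPKM in APEX1-OE and 17.5, 18.0 and 15.3 FPKM in Ctrl. This receptor went the other way between libraries, with its highest values on the lower side, and its range was narrow, the highest FPKM being 1.24 times the lowest. ERBB3 (ENSG00000065361.14, chromosome 12 from 56076799 to 56103505, plus strand) had 0.11, 0.13 and 0.25 FPKM in APEX1-OE and 0.21, 0.15 and 0.24 FPKM in Ctrl, from 29 to 81 counts per library. The ERBB3 values followed neither the plasmid nor the library side, and at these counts small differences were not detectable. ERBB3 lies over RP11-603J24.9 on the same strand, which had 1829 to 3288 counts, and reads shared by them could have gone to either gene. ERBB2 lies over MIEN1 and PGAP3 and EGFR over EGFR-AS1, all on the opposite strand. Whether counting used the strand is not stated in the sources used here, so reads of such pairs cannot be told apart. EGFR-AS1 had at most 24 counts, while MIEN1 had 1989 to 2494 and PGAP3 603 to 811 beside 3378 to 4587 for ERBB2.

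**Figure D1:**
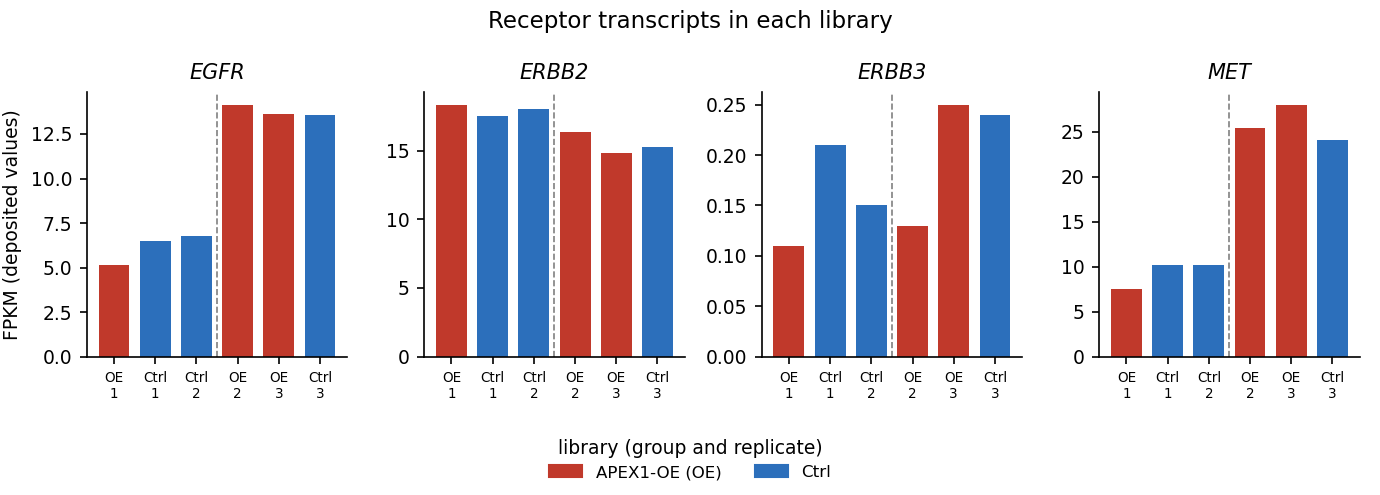
Deposited FPKM (vertical axes, each from 0) of the receptors EGFR, ERBB2, ERBB3 and MET in the 6 libraries (horizontal axes), 1 bar each with APEX1-OE in red and Ctrl in blue, where a dashed line parts lower-side libraries on its left from upper-side libraries on its right. EGFR and MET are low left of the line and high right of it in both colours, from 7.49 to 28.0 FPKM for MET.

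Among the ligands, EREG, whose product epiregulin binds EGFR and ERBB4, varied most in FPKM. EREG (ENSG00000124882.3, chromosome 4 from 74365145 to 74388749, plus strand) had 8.65, 23.3 and 30.7 FPKM in APEX1-OE and 10.1, 11.8 and 23.1 FPKM in Ctrl. BTC, which encodes betacellulin (ENSG00000174808.11, chromosome 4 from 74744759 to 74794523, minus strand), had 1.11, 2.78 and 3.18 FPKM in APEX1-OE and 1.47, 1.35 and 2.55 FPKM in Ctrl. Both were lowest in APEX1-OE replicate 1, highest in APEX1-OE replicate 3, and just under APEX1-OE replicate 2 in Ctrl replicate 3. Geometric mean CPM on the upper side was 2.22 times that on the lower side for EREG and 1.91 times for BTC.

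AREG, the gene of amphiregulin (ENSG00000109321.10, chromosome 4 from 74445136 to 74455005, plus strand), had 12.3, 17.3 and 26.1 FPKM in APEX1-OE and 15.96, 14.9 and 17.6 FPKM in Ctrl. APEX1-OE replicates 1 and 3 held the lowest and the highest value, and the Ctrl libraries lay between them. The mean CPM of AREG was 27.6 ± 8.17 in APEX1-OE and 24.7 ± 0.790 in Ctrl (SD, n = 3 libraries each). HBEGF, the heparin-binding ligand (ENSG00000113070.7, chromosome 5 from 140332843 to 140346603, minus strand), had 1.60, 2.57 and 2.34 FPKM in APEX1-OE and 1.88, 1.77 and 1.97 FPKM in Ctrl. TGFA, the gene of transforming growth factor alpha (ENSG00000163235.15, chromosome 2 from 70447284 to 70554193, minus strand), had 1.90, 2.77 and 2.70 FPKM in APEX1-OE and 2.01, 2.34 and 2.52 FPKM in Ctrl. HBEGF and TGFA had the narrowest ranges of the ligands in FPKM, with highest over lowest of 1.61 and 1.46, and their lowest value was in APEX1-OE replicate 1.

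**Figure D2:**
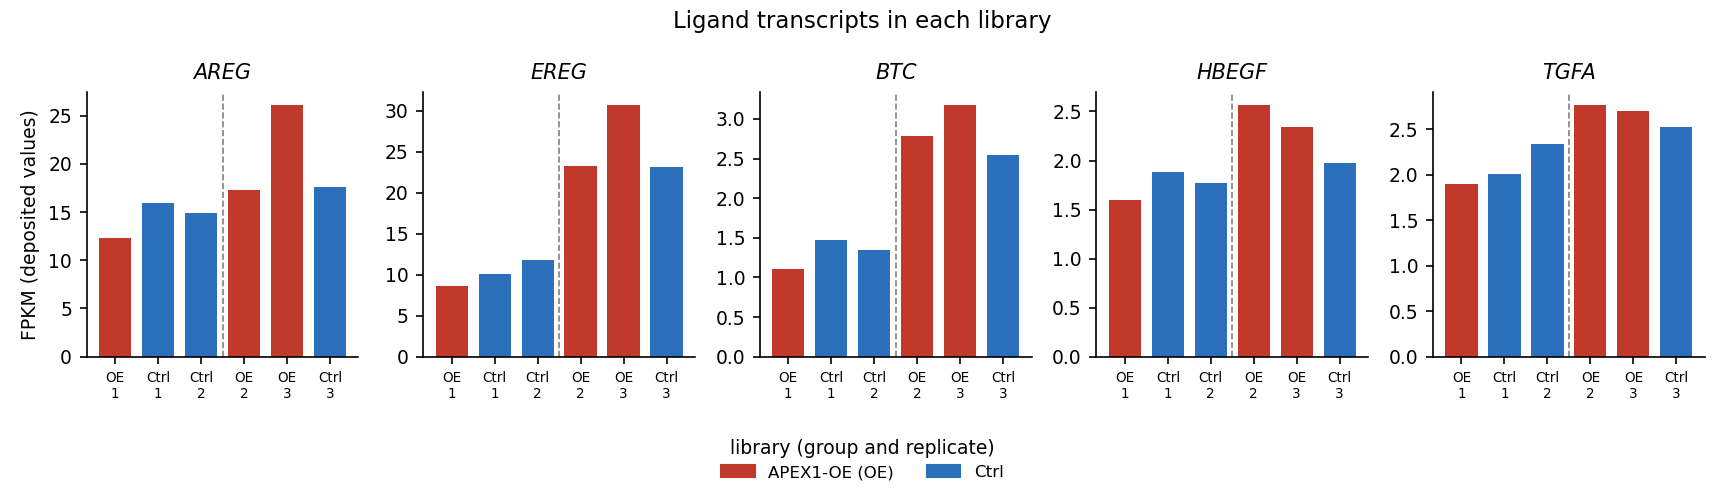
Deposited FPKM (vertical axes, each from 0) of the ligands AREG, EREG, BTC, HBEGF and TGFA in the 6 libraries (horizontal axes), 1 bar each with APEX1-OE in red and Ctrl in blue, lower-side libraries left of the dashed line and upper-side libraries right of it. EREG reaches 30.7 FPKM and BTC 3.18 FPKM in the third APEX1-OE library, and for these ligands Ctrl replicate 3 stands nearer to the APEX1-OE libraries on its side than to the other Ctrl libraries.

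Per length, the mean FPKM over the 6 libraries formed 4 levels. EREG, MET, AREG and ERBB2 had mean FPKM of 17.9 ± 9.0, 17.6 ± 9.21, 17.3 ± 4.71 and 16.7 ± 1.47 (SD, n = 6), and each was above the next in 3 of 6 libraries, so their order was not resolved. On the lower side MET and EREG lay nearer to EGFR than to ERBB2, so this shared level is one of means over both sides. EGFR followed at 9.95 ± 4.23 FPKM, below ERBB2 in all 6 libraries. TGFA, BTC and HBEGF had 2.37 ± 0.359, 2.07 ± 0.868 and 2.02 ± 0.365 FPKM, each again above the next in 3 of 6 libraries, though TGFA exceeded HBEGF in all 6, and ERBB3 was lowest in all 6. The gene lengths behind the FPKM are not stated in the sources used here, and by CPM per kb of GENCODE exons ERBB2, at a mean of 11.4, lay nearer to EGFR at 8.81 than to AREG at 15.9, EREG at 17.3 or MET at 19.4.

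The leading receptor and the leading ligand differed with the library side. On the FPKM scale ERBB2 was the highest receptor in APEX1-OE replicate 1 and Ctrl replicates 1 and 2, and MET was the highest in APEX1-OE replicates 2 and 3 and Ctrl replicate 3. The ratio of MET to ERBB2 in FPKM was 0.408, 1.56 and 1.89 in APEX1-OE and 0.580, 0.567 and 1.58 in Ctrl. By CPM per kb of GENCODE exons it was 0.689, 2.63 and 3.19 in APEX1-OE and 0.979, 0.957 and 2.67 in Ctrl, so the lead of ERBB2 was slight in Ctrl replicates 1 and 2. AREG exceeded EREG on the lower side and EREG exceeded AREG on the upper side, with FPKM ratios of EREG to AREG of 0.703, 1.35 and 1.18 in APEX1-OE and 0.631, 0.791 and 1.32 in Ctrl. The leading receptor and ligand of each library were the same by CPM per kb as by FPKM, but EGFR then exceeded ERBB2 in the upper-side libraries, which it did in none by FPKM.

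The summed FPKM of the 4 receptors was 31.1, 56.0 and 56.8 in APEX1-OE and 34.4, 35.2 and 53.2 in Ctrl. ERBB2 made up 59.0%, 29.2% and 26.2% of that sum in APEX1-OE and 51.0%, 51.3% and 28.7% in Ctrl, and the shares of the groups overlapped (exact two-sided permutation test, p = 0.9). EREG made up 33.8%, 47.8% and 47.2% of the summed ligand FPKM in APEX1-OE and 32.1%, 36.6% and 48.4% in Ctrl (exact two-sided permutation test, p = 0.7). Over the 9 shares compared the smallest p was 0.2, for ERBB3, and all exact p adjusted over the 9 were 1.0, where 3 libraries against 3 allow no p under 0.1. With CPM per kb, ERBB3 made up 0.327%, 0.192% and 0.361% of the receptors in APEX1-OE and 0.545%, 0.379% and 0.373% in Ctrl, which did not overlap (exact two-sided permutation test, p = 0.1, adjusted 0.9).

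The difference between library sides moved with the GC content of the exons over all genes. With the tested genes in 5 groups of about equal size by GC content, the median log2 difference in CPM, upper side minus lower side, was 0.86, 0.52, 0.044, -0.35 and -0.59 from group 1, the lowest in GC, to group 5. EREG and BTC, with 36.8% and 38.7% GC, are in group 1 and had side differences of 1.15 and 0.93. AREG and MET, with 42.8% and 43.6% GC, are in group 2, where AREG had 0.29 and MET 1.30. EGFR, ERBB3, HBEGF and TGFA, with 46.7% to 50.2% GC, are in group 3 and had 0.99, 0.24, 0.20 and 0.17. ERBB2, at 57.6% GC, had -0.40 in group 4. EGFR, MET and EREG thus lay above the upper quartile of their own groups (0.36, 0.82 and 1.08), and the other 6 lay within the quartiles.

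After each library's dependence on GC content and length was removed with splines, the log2 side difference was 0.59 for EGFR, 0.73 for MET, 0.28 for EREG, 0.24 for BTC and -0.13 for ERBB2. HBEGF went from 0.20 to 0.26, the only one of the 9 whose side difference grew in size. The log2 range of MET over the 6 libraries was 1.62 before this step, above that of 91.4% of all genes tested, and 0.86 after it, above that of 75.4%. The range of EREG went from 1.55, above 89.2% of genes, to 0.46, above 40.2%. The differences of EGFR and MET were thus smaller than the 0.99 and 1.30 before this step, and were the largest of the 9 after it, while AREG had -0.17. The log2 ranges of the ligands after it were 0.48 for AREG and HBEGF, 0.46 for EREG, 0.40 for BTC and 0.24 for TGFA. What made the libraries differ was not tested.

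**Figure D3:**
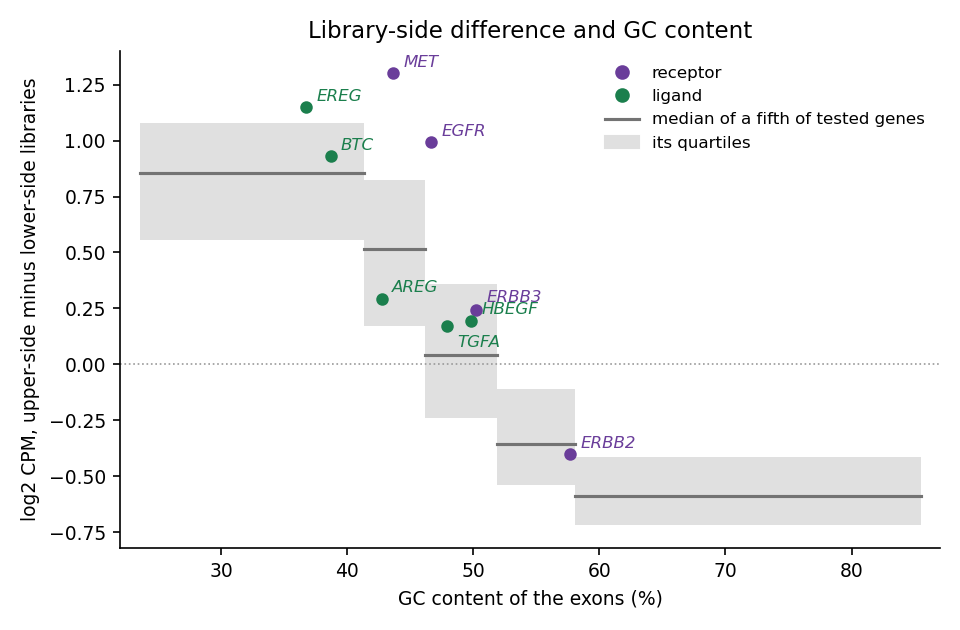
Log2 CPM of upper-side minus lower-side libraries (vertical axis) against the GC content of the exons in percent (horizontal axis), with receptors in purple, ligands in green, and grey lines and bands for medians and quartiles of 5 groups of tested genes by GC content. The medians go from 0.86 in the group lowest in GC to -0.59 in the highest, and MET, EGFR and EREG stand above the bands of their groups.

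EREG, AREG and BTC are neighbours on chromosome 4, with 56.4 kb between EREG and AREG and about 290 kb between AREG and BTC. The side differences were 1.15 and 0.93 for EREG and BTC and 0.29 for AREG, and after the splines 0.28, 0.24 and -0.17. The ratio of EREG to BTC in FPKM was 7.79, 8.37 and 9.66 in APEX1-OE and 6.85, 8.70 and 9.05 in Ctrl, a narrower range than that of EREG to AREG. EPGN, the gene of epigen next to EREG, had 0 to 2 counts in each library.

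The bases before the start sites of EREG, AREG and BTC are shown because these genes are neighbours, and those of EGFR and MET because of their side differences. The sequences are the 250 bases upstream of the RefSeq start on GRCh38.p14, written 5′ to 3′ on the gene's strand. The table of start sites held 8 of the 9 genes, all but ERBB3, and for EGFR the first of its starts is shown. Capitals mark a TATA box (TATAAA), an AP-1 site (TGANTCA), a cyclic AMP response element (TGACGTCA) or a GC box (GGGCGG), searched on both strands, none of which contains another.
EREG, chr4:74364895-74365144, plus strand: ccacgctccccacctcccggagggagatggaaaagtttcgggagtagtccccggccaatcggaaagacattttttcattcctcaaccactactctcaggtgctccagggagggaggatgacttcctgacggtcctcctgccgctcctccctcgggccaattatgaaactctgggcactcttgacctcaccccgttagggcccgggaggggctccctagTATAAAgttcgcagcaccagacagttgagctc
AREG, chr4:74444886-74445135, plus strand: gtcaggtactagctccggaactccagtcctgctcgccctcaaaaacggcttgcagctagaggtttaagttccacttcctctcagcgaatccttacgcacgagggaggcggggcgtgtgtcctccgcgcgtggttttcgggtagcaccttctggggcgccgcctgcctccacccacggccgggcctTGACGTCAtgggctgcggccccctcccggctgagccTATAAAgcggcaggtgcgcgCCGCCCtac
BTC, chr4:74794524-74794773, minus strand: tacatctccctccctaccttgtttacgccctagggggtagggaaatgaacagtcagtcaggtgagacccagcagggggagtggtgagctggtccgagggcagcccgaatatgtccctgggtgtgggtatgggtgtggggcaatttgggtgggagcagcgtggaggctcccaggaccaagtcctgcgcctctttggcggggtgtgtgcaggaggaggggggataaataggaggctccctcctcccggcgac
EGFR, chr7:55018767-55019016, plus strand: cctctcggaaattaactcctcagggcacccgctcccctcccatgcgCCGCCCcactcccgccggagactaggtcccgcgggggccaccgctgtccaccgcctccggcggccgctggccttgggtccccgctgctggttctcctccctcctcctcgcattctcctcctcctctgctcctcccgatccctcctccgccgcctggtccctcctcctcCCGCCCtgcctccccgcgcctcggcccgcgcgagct
MET, chr7:116671946-116672195, plus strand: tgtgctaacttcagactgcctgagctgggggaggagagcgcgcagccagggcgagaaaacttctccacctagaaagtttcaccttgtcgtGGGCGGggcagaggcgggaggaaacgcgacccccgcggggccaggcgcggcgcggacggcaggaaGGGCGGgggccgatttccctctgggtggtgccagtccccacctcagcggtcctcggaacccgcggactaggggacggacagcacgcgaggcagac

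EREG had a TATA box 32 bases before its start and AREG one 29 bases before, a motif found in 10.7% of all 35116 windows of this length. AREG also held a cyclic AMP response element 65 bases before its start, which 1.65% of all windows hold, and a GC box, which 42.6% hold. BTC held none of the 4 motifs in this window. The windows shown for EGFR and MET had no TATA box and 2 GC boxes each, and none of the 5 windows shown held an AP-1 site, found in 6.57% of all windows. The window of the other EGFR start, chr7:55109589-55109838, held 2 TATA boxes, 2 AP-1 sites and 0 GC boxes. All 5 windows shown had more GC than the exons, from 58.0% in EREG to 73.6% in EGFR. A match of letters describes the sequence only, and no binding was measured here.

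For the comparison of the plasmids, intervals show how far the data limit a change. On condition alone, edgeR gave EGFR a log2 fold change of 0.26 (standard error 0.378), MET 0.41 (standard error 0.468) and EREG 0.44 (standard error 0.425), each with an adjusted p = 1.0. The 95% interval of the fold was 0.654 to 2.20 for EGFR, 0.630 to 2.82 for MET and 0.685 to 2.68 for EREG, so folds as large as those between the library sides lie inside the intervals. ERBB2, whose transcripts varied least among the receptors, had an interval of 0.680 to 1.39 and ERBB3 of 0.475 to 1.38. Among the other ligands the intervals were 0.745 to 1.68 for AREG, 0.705 to 2.33 for BTC, 0.793 to 1.62 for HBEGF and 0.743 to 1.48 for TGFA.

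With the library side as a term the intervals narrowed and 3 signs turned. The log2 fold change became -0.11 for EGFR (standard error 0.0965), -0.091 for MET (standard error 0.109) and 0.092 for ERBB2 (standard error 0.0917), with adjusted p of 0.673, 0.769 and 0.717 in edgeR. The fold intervals were then 0.803 to 1.07 for EGFR, 0.799 to 1.10 for MET and 0.930 to 1.22 for ERBB2. EREG was at 0.0016 with a fold interval of 0.826 to 1.21, AREG at 0.049 with 0.821 to 1.30, and BTC at 0.026 with 0.808 to 1.28. HBEGF, at 0.13, had an interval of 0.867 to 1.38, TGFA, at 0.013, of 0.838 to 1.22, and ERBB3, at -0.45, the widest of the 9, of 0.487 to 1.10. In this fit folds of 2 and of 0.5 lay outside the intervals of 8 genes, and the interval of ERBB3 reached below 0.5. The side was read from the expression of these same libraries, which by itself lowers the spread left in the fit, so these intervals may be too narrow.

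Within the sides, most differences between the plasmids had opposite signs. On the lower side, with 1 APEX1-OE and 2 Ctrl libraries, log2 CPM in APEX1-OE minus Ctrl was -0.25 for EGFR, -0.33 for MET, -0.22 for EREG and 0.16 for ERBB2. On the upper side, with 2 APEX1-OE and 1 Ctrl library, the same differences were 0.029, 0.14, 0.21 and 0.024. The sign was the same on both sides for 2 of the 9 genes, ERBB2 and ERBB3, and ERBB3 had -0.57 and -0.41. APEX1 itself differed by 2.39 on the lower side and 2.54 on the upper side. No test was run within a side, since each held a group of 1 library.

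**Figure D4:**
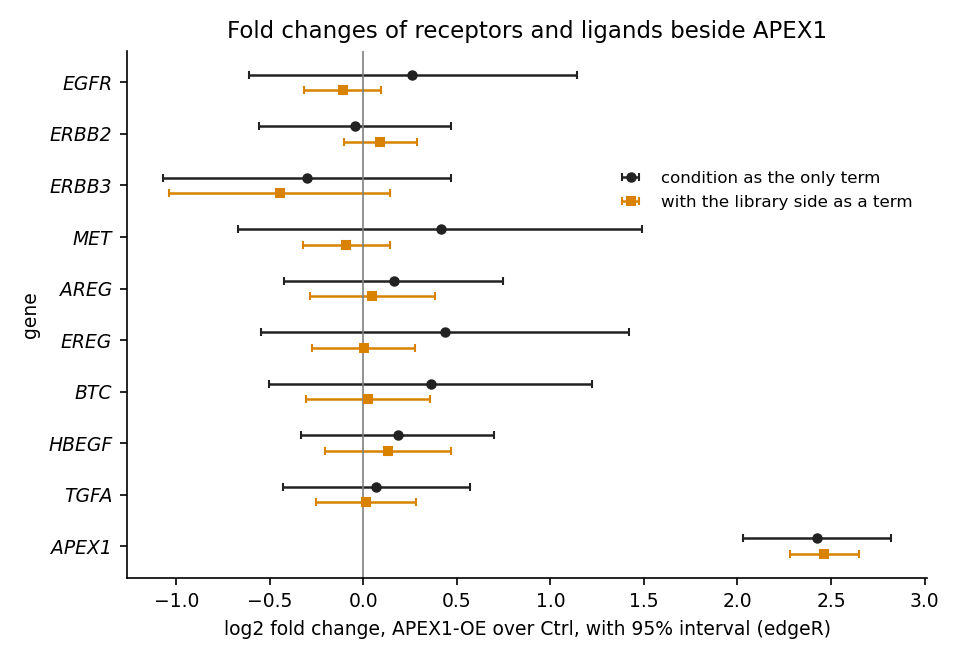
Log2 fold change of APEX1-OE over Ctrl from edgeR (horizontal axis) for the 9 genes and APEX1 (vertical axis), from the fit on condition alone (black circles) and with the library side as a term (orange squares), with 95% intervals as bars. All bars of the receptors and ligands cross 0 in both fits, while APEX1 stands at 2.42 and 2.46.

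Genes whose log2 CPM over the 6 libraries was most like that of each of the 9 were found among 8919 genes with a mean of at least 10 CPM. The highest Pearson r for MET was with CPSF2 and RAI14 (both 0.9999), for EGFR with RCOR1 (0.9998) and KIAA0368 (0.9997), and for EREG with NR5A2 (0.9995) and NIFK (0.9993). For BTC these genes were DDX18 (0.9992) and NMI (0.9991), and for ERBB2 they were TCF25 (0.9995) and TEX264 (0.9993). Such values were common, since 24.8% of the genes compared had an r over 0.95 with MET and 24.9% with ERBB2, and all share the 6 libraries and their sides. For AREG the closest were SNRPD3 (0.9865) and C12orf75 (0.9858), for ERBB3 GYG2 (0.9887) and GMPR2 (0.9822), for HBEGF LARS2 (0.9784) and INA (0.9665), and for TGFA PSMD11 (0.9651) and C17orf51 (0.9602). An r over 0.95 was reached by 20 genes with AREG, 11 with ERBB3 and 3 each with HBEGF and TGFA.

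Other receptors and ligands of these families were mostly at low levels, and 0 of the 6 that passed the filter were called in edgeR with or without the library side as a term. Their median log2 fold change was 0.051 on condition alone and -0.037 with the library side, beside 0.033 and 0.0081 over all genes tested. Of all genes tested, 0.00589% were called on condition alone and 0.0236% with the library side, so nothing particular is read from 0 of 6. The neuregulin gene NRG1, a ligand of ERBB3 and ERBB4, had 7.24, 14.9 and 14.3 FPKM in APEX1-OE and 8.15, 8.23 and 12.5 FPKM in Ctrl. It was thus the most abundant ligand outside the 9 genes and lay highest in the upper-side libraries. NRG2 had a mean of 1.26 FPKM, MST1R, a receptor related to MET, 2.83 FPKM and its ligand gene MST1 0.412 FPKM. HGF, the ligand of MET, had 7 to 50 counts per library and a mean of 0.065 FPKM, and EGF had 14 to 40 counts and 0.13 FPKM. ERBB4 had 0 to 2 counts in every library, under the 3 counts that a count of 0 allows, which is 0.0732 to 0.107 CPM and covers counting error only. NRG4 had 4 to 11 counts, and NRG3 had no single row under its symbol in the count table, so no value is given.

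Of the genes for shedding and activation, 11 of 12 passed the filter and 0 were called, near the 0.00589% and 0.0236% of all genes called. Their median log2 fold change was -0.091 on condition alone and 0.046 with the library side, beside 0.033 and 0.0081 over all genes tested. SPINT2, an inhibitor of the protease that activates HGF, was the most abundant at a mean of 334 FPKM, followed by the metalloprotease ADAM15 at 69.0 FPKM, and ST14, the gene of matriptase, was lowest of the 11 at 0.0633 FPKM. ADAM10, the sheddase of BTC, had 2.08, 6.32 and 8.70 FPKM in APEX1-OE and 2.91, 2.86 and 6.64 FPKM in Ctrl, the same order of sides as BTC. RHBDL2, a rhomboid protease, had 1.01, 1.31 and 1.45 FPKM in APEX1-OE and 1.43, 1.47 and 1.84 FPKM in Ctrl. Its log2 fold change was -0.35 (standard error 0.217, adjusted p = 1.0 in edgeR).

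All 14 adaptors and first effectors passed the filter and 0 were called, near the 0.00589% and 0.0236% of all genes called. Their median log2 fold changes were 0.20 on condition alone and 0.097 with the library side, beside 0.033 and 0.0081 over all genes tested. The adaptor SHC1 and the kinase SRC had the highest means, 181 and 75.1 FPKM, and the docking protein gene GAB1 the lowest, 0.227 FPKM. For PIK3CA, the catalytic subunit of PI3K, the log2 fold change was 0.67 (standard error 0.446) on condition alone and 0.25 (standard error 0.165) with the library side, and for GAB1 0.49 and 0.17, all uncalled in edgeR. Among the negative regulators 14 of 15 passed and 0 were called, again near those shares of all genes. Their median went from 0.075 on condition alone to -0.081 with the library side, beside 0.033 and 0.0081 over all genes tested. ERRFI1, which binds and inhibits EGFR, and the phosphatase gene PTPN1 led at means of 31.8 and 14.0 FPKM, and LRIG2 was lowest of the 14 at 0.503 FPKM. LRIG1, which lowers ERBB receptor levels, had 0.46, 0.65 and 0.66 FPKM in APEX1-OE and 0.73, 0.65 and 0.84 FPKM in Ctrl, and its log2 fold change was -0.35 (standard error 0.220). SPRY2, an antagonist of RAS signalling, had 1.93, 2.16 and 1.89 FPKM in APEX1-OE and 1.63, 1.54 and 1.64 FPKM in Ctrl, and a log2 fold change of 0.30 (standard error 0.218). Both had groups that did not overlap in CPM, which 2 of the 14 negative regulators had beside 3.39% of all genes tested, and neither was called in edgeR. This held for 1 of the 6 other receptors and ligands, NRG2, and for 1 of the 11 shedding and activation genes, RHBDL2. It held for 0 of the 14 adaptors and first effectors and for 3 of 16 genes known to respond to ERK, namely JUN, EGR1 and PHLDA1.

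The genes known to respond to ERK were the 1 list with a call. The list was chosen with earlier results of these data known, so its call and counts are a description and no independent support. On condition alone 0 of 16 were called, against 1 of all genes or 0.00589%, with a median log2 fold change of 0.15 beside 0.033 over all genes tested. With the library side as a term 1 of 16 was called, against 4 of all genes or 0.0236%, with a median of 0.27 beside 0.0081 over all genes tested. That gene was JUN, a subunit of AP-1, with 23.3, 22.6 and 16.4 FPKM in APEX1-OE and 13.5, 12.3 and 12.2 FPKM in Ctrl. The lowest JUN value in APEX1-OE lay above the highest in Ctrl. The log2 fold change of JUN was 0.72 on condition alone (standard error 0.240, adjusted p = 1.0 in edgeR), where JUN was uncalled. It was 0.82 with the library side (standard error 0.126, adjusted p = 0.0492 in edgeR), close to the threshold. The side term was read from the expression of these same libraries, so this adjusted p may be too small. With that term and the offset for GC content and gene length it was 0.75 (standard error 0.103, adjusted p = 0.0271 in edgeR). The early response gene EGR1 had 4.81, 4.44 and 2.66 FPKM in APEX1-OE and 1.95, 2.14 and 2.12 FPKM in Ctrl, and its log2 fold change with the library side was 1.05 (standard error 0.191, adjusted p = 0.0954 in edgeR). FOSL1 had 36.9, 27.4 and 16.4 FPKM in APEX1-OE and 18.9, 19.3 and 13.3 FPKM in Ctrl, so its groups overlapped. Its log2 fold change with the library side was 0.89 (standard error 0.161, adjusted p = 0.0954 in edgeR). At an unadjusted p under 0.05, 9 of the 16 were higher and 0 lower in that fit, against 1461 higher and 512 lower of all genes tested. On condition alone 2 of the 16 were higher and 0 lower, against 67 higher and 51 lower of all genes tested. CCND1 and IER3 had the highest means, 86.2 and 70.9 FPKM, and FOS the lowest, 1.36 FPKM, and none of these was called. A link between JUN and the receptors and ligands was not tested.

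**Figure D5:**
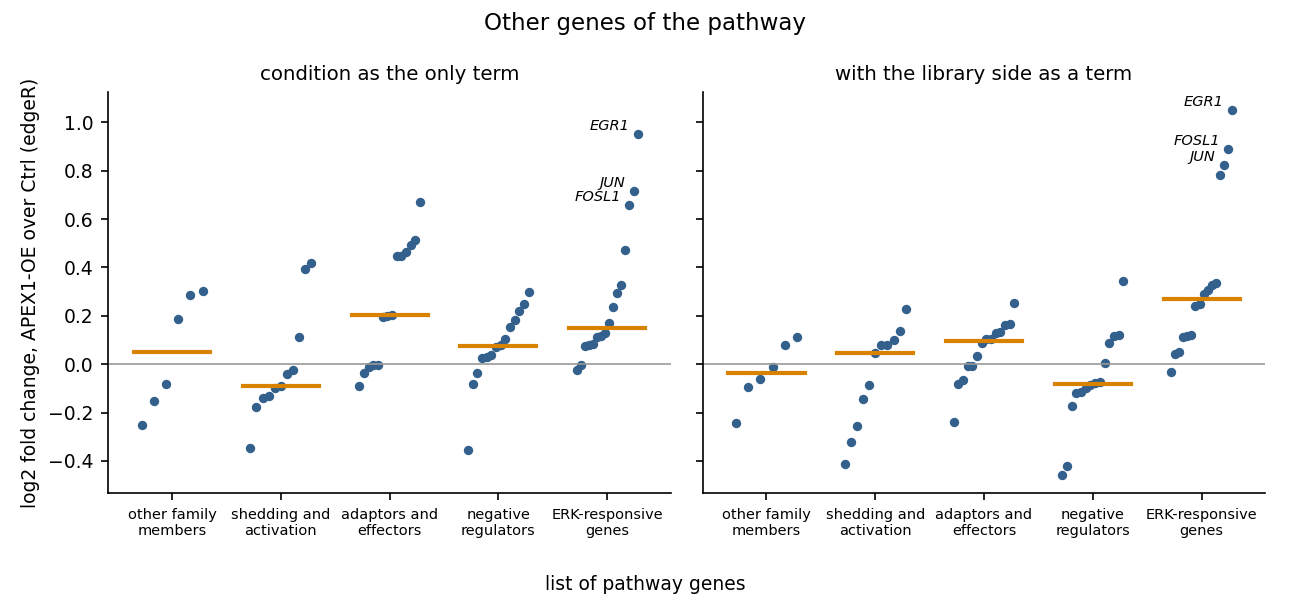
Log2 fold change of APEX1-OE over Ctrl from edgeR (vertical axis) for the genes of 5 lists that passed the filter (horizontal axis), on condition alone on the left and with the library side as a term on the right. Points are genes and orange lines list medians, 0.15 and 0.27 for the ERK-responsive genes, of which JUN was called on the right.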

How the data were processed

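RNA-seq libraries of A549 cells, 3 APEX1-OE and 3 Ctrl, were grouped by the treatment and title in the labels. FASTX-Toolkit 0.0.13 served the authors for trimming, with 16 nt as the shortest read kept and 2 as the most N bases allowed. Alignment to GRCh38 was by TopHat2, with up to 4 mismatches. The deposited gene counts, which the authors took from reads that mapped uniquely, are not normalized. The authors also computed the deposited FPKM from these reads, for 31951 of the 32192 genes. The sources used here do not name the counting tool, its annotation or its use of strand. The processing notes of the submitters name bcl2fastq, TopHat2 and edgeR.

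Counts were analysed in R 4.3.3 with edgeR 4.0.16 (filterByExpr with a minimum count of 10 and total of 15, TMM, robust quasi-likelihood test, fitted on condition alone, Benjamini-Hochberg adjustment over the 16971 genes tested at 0.05). DESeq2 1.42.0 and limma 3.58.1 on log2(FPKM + 1) were alternatives, and the test was tested on simulated counts. Exact permutation tests of shares and motif searches ran in Python 3.11.15 with SciPy 1.17.1. Exon lengths, GC content and coordinates came from GENCODE 44 on GRCh38, which held 31231 of the genes, 16746 of them among those tested. The offset used splines with 5 degrees of freedom on GC content and length. Start-site sequences came from RefSeq (GRCh38.p14). The closest pair of libraries, Ctrl replicates 1 and 2, differed by a chi-square per degree of freedom of 3.86, so all were kept.

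The members and lists were chosen with earlier results of these data known. Named were the members, APEX1, called list genes, the detected other receptors and ligands, of each other list the 2 genes of highest and the 1 of lowest mean FPKM and the 2 of smallest p, and for each member the 2 genes of most similar profile. The ERK-responsive list and the negative regulators share SPRY4. ERBB4, EPGN and NRG4 were named for their counts near 0, FOSL1 for its p with the library side as a term, and PHLDA1 for groups that did not overlap in CPM. No column of values per sample was left unused.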

Additional observations from a re-analysis of the deposited data

How the results depend on the processing

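None of the 9 receptors and ligands was called by edgeR, DESeq2 or limma under any alternative run, including each library left out in turn. Over settings that kept all libraries, 4 of 107 fold changes of the 9 genes reversed, all with the library side as a term: EGFR to -0.11, ERBB2 to 0.092 and MET to -0.091, and with the GC content and length offset as well EGFR to -0.042. With single libraries left out, 5 of 54 reversed, and the log2 fold changes ranged from -0.24 to 0.077 for ERBB2, from -0.10 to 0.31 for AREG and from -0.012 to 0.14 for TGFA. Without reversal the ranges were 0.052 to 0.62 for EGFR, 0.15 to 0.88 for MET, 0.10 to 0.82 for EREG, 0.13 to 0.64 for BTC, 0.072 to 0.28 for HBEGF and -0.69 to -0.14 for ERBB3. The called genes among all tested, 1 with the condition alone, numbered 10 with no filter on low counts, 4 with the library side, 20 with the side and the offset, 118 at an unadjusted p under 0.05 and 0 to 1 with single libraries left out. APEX1 kept log2 fold changes of 2.36 to 2.46 with single libraries left out but lost its call in 4 of the 6 cases, with fewer samples. The number of receptor or ligand shares with groups that did not overlap, 0 by FPKM, was 1 with CPM per kb and 0 to 1 with single libraries left out. The offset without the side, chosen after seeing the data, called 1 gene. With the replicate number as a block 2 genes were called and none of the 9. Deviations of libraries with the same replicate number correlated at 0.572, -0.480 and 0.673 for replicates 1, 2 and 3. The libraries of replicate 1 share a side, as do those of replicate 3, and those of replicate 2 do not. The correlations therefore cannot show whether replicate numbers pair the libraries. The causes of the differences between settings were not tested. Depth limits ERBB3 most, with 29 to 81 counts.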
